A study of Homo sapiens with 12 samples.

Results

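The 47 genes described here encode the folding, export and disposal machinery of the endoplasmic reticulum (ER). They were chosen by name from a list of 48 gene symbols, of which 47 were found among the 60504 features of the deposited expression table. The remaining symbol, VIMP, is an older name of SELENOS, which is counted once. Polyadenylated RNA was sequenced from 12 libraries, 3 for each of 4 groups of TKO cells, a derivative of the human multiple myeloma line KMS-11 labelled WHSC1 +/- for genotype. NSD2, formerly WHSC1, is a histone methyltransferase that is overexpressed in part of multiple myeloma. The D1240A group carried a vector for NSD2 with that amino acid change, the F1295A group a vector for NSD2 with F1295A, the WT group a vector for unchanged NSD2, and the TKO group no vector. All 4 groups share the KMS-11 TKO background, and no TKO cells with an empty vector were analysed here, so a comparison with TKO is also one of cells with and without a vector. The sources used here do not give the promoter of the vector or the number of clones behind each line. The series title names the C-terminal part of NSD2, where both changes lie, and its bearing on the transcription of cell adhesion genes. ER genes are not named there.

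Proteins bound for secretion or for membranes enter the ER through the SEC61 channel, lose their signal peptide, receive glycans and fold with the help of chaperones and disulfide-forming enzymes. Proteins that fail to fold are pulled back out, tagged with ubiquitin and degraded, a route called ER-associated degradation. When unfolded protein accumulates, the sensors ERN1 (IRE1), EIF2AK3 (PERK) and ATF6 start the unfolded protein response, and ERN1 splices the mRNA of the transcription factor XBP1. Plasma cells and myeloma cells are professional secretory cells, and XBP1 is known to expand their ER.

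Values are FPKM, a fragment count corrected for the length of the gene and the size of the library, rescaled between libraries here, with means ± SD over n = 3 libraries per group. Changes are on the log2(FPKM + 0.5) scale and are D1240A, F1295A or WT minus the group they are set against. A gene was called higher or lower when limma gave it an adjusted p under 0.05, with Benjamini-Hochberg adjustment across the 14391 genes tested. Read depth is unknown, and the labels name the replicates as biological without saying whether they were separate cultures, so p-values measure the spread between these libraries. The libraries held 11963 to 12297 genes at 1 FPKM or more. D1240A replicate 2 stood apart: ribosomal RNA features, mitochondrial ones included, made up 52.7% of its deposited FPKM sum, against 1.66% to 2.47% in the other 11 libraries, and results that change without it are given both ways. NSD2 RNA was lowest in TKO cells, with 242, 259 and 250.3 FPKM in the D1240A libraries, 172, 161 and 159 in the F1295A libraries, 189, 188 and 195 in the WT libraries and 58.9, 58.6 and 62.7 in the TKO libraries. D1240A cells thus held more NSD2 RNA than WT cells (log2 change 0.40, SE 0.039, adjusted p = 5.26e-05, limma), and F1295A cells held less (log2 change -0.21, SE 0.039, adjusted p = 0.0138, limma). Of 9 plasma-cell markers, 6 or 7 averaged at least 1 FPKM in each group, but SDC1 was below 1 FPKM in every library with a vector and CD38 averaged below 1 FPKM in all 4 groups. Summed plasma-cell marker levels ran from 3820 to 4147 FPKM in D1240A, 4637 to 5045 in F1295A, 4680 to 4912 in WT and 2337 to 2550 in TKO libraries. JCHAIN carried most of these sums, with means of 3145 FPKM in D1240A, 3913 in F1295A, 3787 in WT and 1731 in TKO cells. SDC1, MZB1 and CD38 were instead highest in TKO cells. SDC1 averaged 0.278 FPKM in D1240A, 0.25 in F1295A, 0.235 in WT and 4.01 in TKO cells, and MZB1 218 FPKM in D1240A, 231 in F1295A, 239.7 in WT and 257 in TKO cells. Their part in the results was not tested. In RNA from bulk cells, fewer cells of a type and less RNA per cell cannot be told apart. Summed levels of 4 B-cell, 4 T-cell and 4 myeloid markers stayed at or under 1.29 FPKM in every library, and 4 erythroid markers reached 0.431 FPKM in libraries with a vector and 3.63 FPKM in TKO libraries. Sums of 4 stromal markers were 2.76 to 3.999 FPKM in D1240A, 1.97 to 2.43 in F1295A, 1.40 to 1.86 in WT and 1.40 to 1.76 in TKO libraries.

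Most of the ER genes were expressed more highly in cells with an NSD2 vector than in TKO cells. In WT against TKO, 29 of 46 tested ER genes rose, 4 fell and 13 were not called. Over all tested genes, 25.8% were called higher and 23.9% lower in that comparison. The median log2 change was 0.29 for the ER genes and -0.005 for all tested genes. In F1295A against TKO, 31 rose, 4 fell and 11 were not called, with 23.9% of all tested genes called higher and 21.8% lower and a median change of the ER genes of 0.26. In D1240A against TKO, 24 rose, 4 fell and 18 were not called, with 23.3% of all tested genes called higher and 21.2% lower and a median of 0.14. Without D1240A replicate 2, the last comparison had 24 higher and 3 lower, beside 22.0% and 20.1% of all tested genes. With the values as deposited it had 10 higher and 5 lower, beside 10.997% and 26.346% of all tested genes. The median change was then -0.01 for the ER genes and -0.12 for all tested genes. These 3 comparisons share the TKO libraries. The library ranges of 26 ER genes in D1240A, 32 in F1295A and 31 in WT lay wholly above the TKO range, and those of 5 genes in each line lay wholly below it. Over all tested genes, ranges did not overlap with TKO for 52.5% in D1240A, 55.7% in F1295A and 60.4% in WT cells. The remaining member of the list, KDELR3, was too low to test, with group means of 0.119 FPKM in D1240A, 0.186 in F1295A, 0.104 in WT and 0.0672 in TKO cells.

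**Figure D1:**
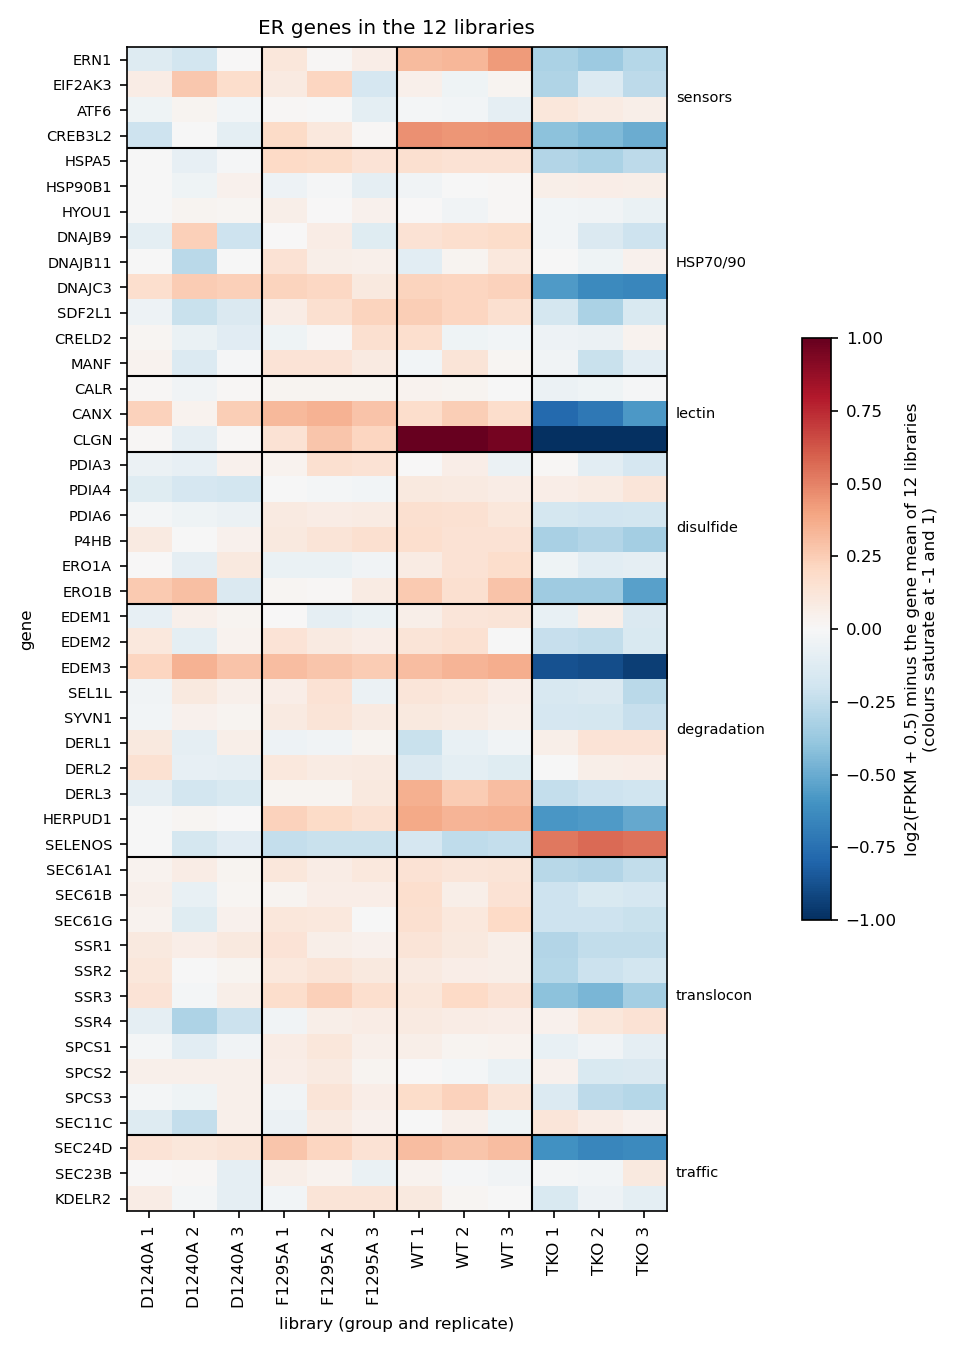
Colour shows log2(FPKM + 0.5) of each tested ER gene in each of the 12 libraries minus its mean over them, with genes in rows by role and libraries in columns by group. The TKO columns are blue for most genes, with SELENOS (red in TKO) the clearest exception, and CLGN and CREB3L2 are darkest red in the WT columns.

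Set against WT, part of the set was lower in D1240A and in F1295A cells and no member was called higher. In D1240A against WT, 17 of 46 ER genes fell, none rose and 29 were not called, with 10.9% of all tested genes called lower and 8.21% higher. The median change was -0.09 for the ER genes and 0.006 for all genes. Without D1240A replicate 2, 13 fell (P4HB, SEC61B, SEC61G, SPCS1 and SPCS3 were no longer called and DNAJB9 was added) and 2, DERL1 and SELENOS, were called higher. Of all tested genes, 8.87% were then called lower and 6.74% higher. In F1295A against WT, 5 fell (CLGN, CREB3L2, ERN1, DERL3 and HERPUD1), none rose and 41 were not called, with 1.81% of all tested genes called lower and 0.896% higher. Both comparisons share the WT libraries. In the direct comparison of D1240A against F1295A, 9 fell and none rose, with 3.09% of all tested genes called lower and 3.00% higher. Those 9 were HSPA5, SDF2L1, CLGN, PDIA4, PDIA6, DERL3, HERPUD1, SSR4 and SPCS1. Without D1240A replicate 2, 5 were lower (SDF2L1, CLGN, SSR4 and SPCS1 were no longer called), and SELENOS was called higher. Of all tested genes, 1.18% were then called lower and 1.47% higher. Ranges lay wholly below WT for 19 ER genes in D1240A and 13 in F1295A and wholly above it for 3 and 4, where 35.4% and 22.9% of all tested genes did not overlap. D1240A ranges lay below F1295A for 19 ER genes and above for 1, where 24.0% of all genes did not overlap. Fitting only the D1240A and F1295A libraries called none of the 9, with limma adjusted p-values from 0.0592 for HSPA5 to 0.17 for CLGN. That fit called few genes at all, with 0.523% of all tested genes higher and 0.228% lower.

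Among the sensors and transcription factors, ERN1 and CREB3L2 were highest in WT cells, intermediate with the altered NSD2 proteins and lowest in TKO cells. CREB3L2 is an ER-anchored transcription factor that is released by cleavage and drives genes of secretory traffic. Its level was 7.36, 8.54 and 7.97 FPKM in the D1240A libraries, 9.88, 9.27 and 8.68 in the F1295A libraries, 11.97, 11.9 and 11.9 in the WT libraries and 6.34, 6.18 and 5.92 in the TKO libraries. The 4 groups did not overlap. WT cells were above TKO cells (log2 change 0.90, SE 0.062, adjusted p = 2.55e-07, limma), while D1240A cells (log2 change -0.56, SE 0.062, adjusted p = 0.000126) and F1295A cells (log2 change -0.35, SE 0.062, adjusted p = 0.0134) were below WT cells. Against TKO, CREB3L2 rose by 0.35 in D1240A and 0.56 in F1295A cells (adjusted p = 0.000773 and 1.72e-05). ERN1, the sensor that splices XBP1 mRNA, reached 7.69, 7.38 and 8.50 FPKM in the D1240A libraries, 9.18, 8.52 and 8.87 in the F1295A libraries, 10.7, 10.8 and 11.5 in the WT libraries and 6.70, 6.47 and 6.87 in the TKO libraries. Every WT library was above every other library, and the lowest 3 were of TKO. ERN1 rose against TKO in D1240A (log2 change 0.22, SE 0.059, adjusted p = 0.0109), F1295A (log2 change 0.38, SE 0.059, adjusted p = 0.000247) and WT (log2 change 0.68, SE 0.059, adjusted p = 1.91e-06, limma). It fell against WT by 0.46 in D1240A (adjusted p = 0.000334) and by 0.30 in F1295A (adjusted p = 0.0233). The difference between D1240A and F1295A did not pass for ERN1 (-0.17, adjusted p = 0.126) or CREB3L2 (-0.21, adjusted p = 0.071). Neither F1295A call against WT held in every fit with 1 library left out. In the fits that lost them, the change was -0.264 to -0.318 for ERN1 and -0.303 to -0.349 for CREB3L2. ERN1 was lost without any 1 of the WT libraries or F1295A replicate 2 or 3 (adjusted p from 0.057 to 0.0983). CREB3L2 was lost without F1295A replicate 2 or 3 (0.0548 both times), WT replicate 1 (0.0591) or WT replicate 3 (0.0527).

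EIF2AK3, the kinase that slows translation under ER stress, had 18.5, 21.3 and 19.8 FPKM in the D1240A libraries, 18.6, 20.4 and 15.5 in the F1295A libraries, 18.2, 17.0 and 17.9 in the WT libraries and 14.2, 15.9 and 14.5 in the TKO libraries. It rose against TKO by 0.41 in D1240A, 0.28 in F1295A and 0.24 in WT cells (limma adjusted p = 0.00272, 0.0223 and 0.036), and the F1295A libraries reached down to 15.5 FPKM, inside the TKO range. The WT call was lost without WT replicate 1 or 3 or TKO replicate 1 or 3 (adjusted p from 0.0817 to 0.114), and the F1295A call without F1295A replicate 1 or 2 or TKO replicate 1 or 3 (0.065 to 0.0924). ATF6, the sensor that is itself a membrane-bound transcription factor, averaged 18.1 ± 0.487 FPKM in D1240A, 17.9 ± 0.748 in F1295A, 17.7 ± 0.464 in WT and 19.4 ± 0.353 in TKO cells. It fell in WT (log2 change -0.13, SE 0.041, adjusted p = 0.0228, limma) and narrowly in F1295A cells (adjusted p = 0.0446) against TKO, and its change in D1240A against TKO was -0.10 (adjusted p = 0.0813). In WT it was lost without TKO replicate 1 (adjusted p = 0.0718) or WT replicate 3 (0.0917), and in F1295A without any 1 of 8 libraries, among them each TKO library (adjusted p up to 0.163). No comparison between lines with a vector called EIF2AK3 or ATF6. XBP1, the transcription factor downstream of ERN1, is not in the set and was measured beside it, at 355, 346 and 352 FPKM in the D1240A libraries, 389.8, 398 and 389.9 in the F1295A libraries, 433, 427 and 426 in the WT libraries and 254, 257 and 262 in the TKO libraries. Its groups did not overlap and their order was WT, F1295A, D1240A and TKO. The change of XBP1 was -0.29 in D1240A and -0.13 in F1295A against WT (adjusted p = 1.41e-05 and 0.0175, limma), and 0.73 in WT against TKO (adjusted p = 4.48e-10). A gene total does not separate spliced from unspliced XBP1 mRNA.

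**Figure D2:**
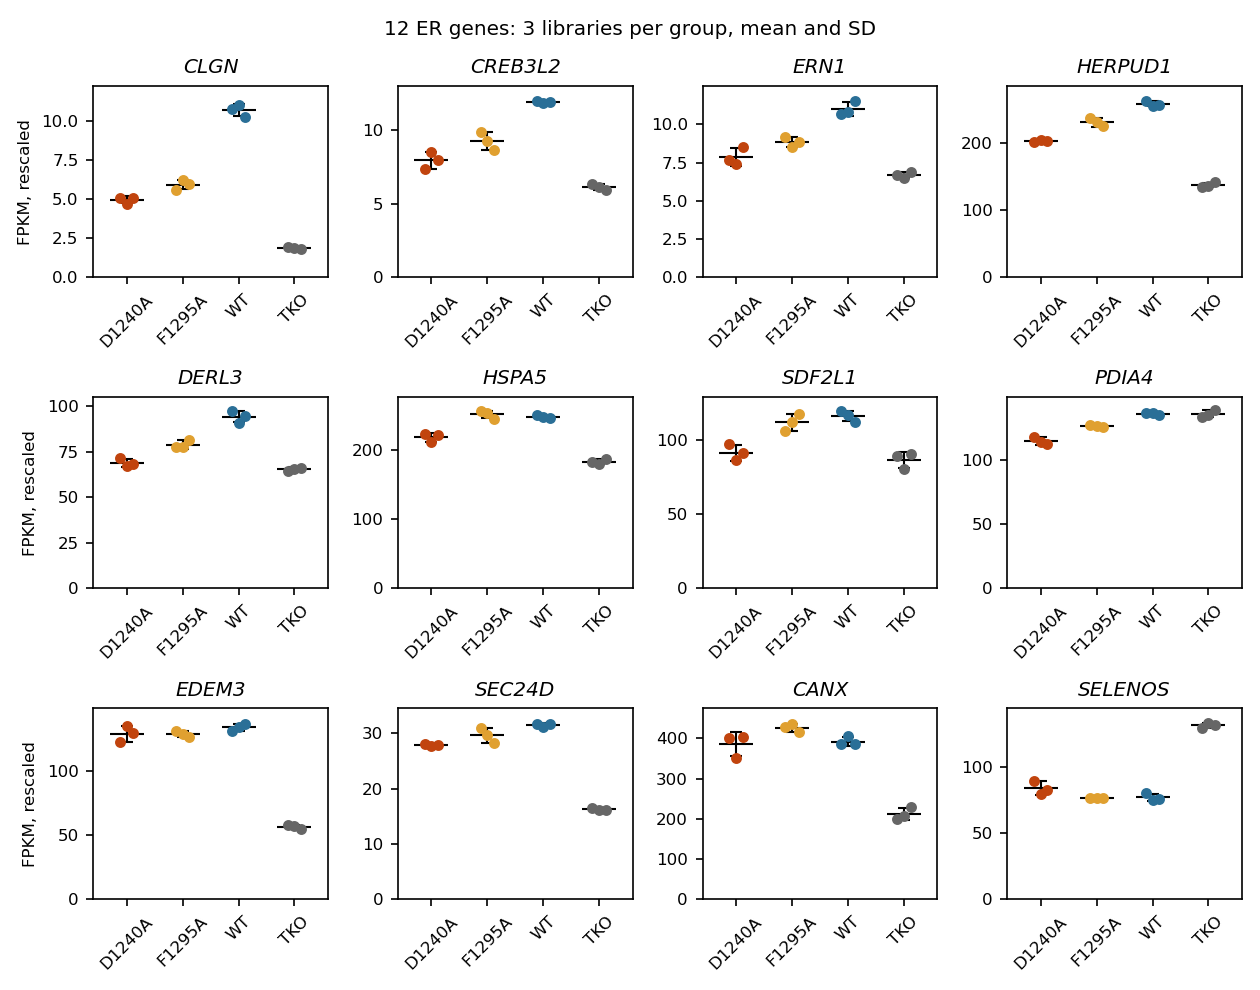
Each panel shows 1 ER gene, with a point per library, the mean as a bar and the SD as whiskers, in rescaled FPKM from 0, for D1240A, F1295A, WT and TKO cells. CLGN, CREB3L2, ERN1, HERPUD1 and DERL3 are highest in WT, while EDEM3, SEC24D and CANX lie close together in the 3 lines with a vector and far lower in TKO, and SELENOS is highest in TKO.

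The HSP70 and HSP90 chaperones of the ER lumen included 5 of 9 genes that rose in WT against TKO and none that fell. HSPA5 (BiP), the ER-resident HSP70 that also holds the sensors inactive, had 223, 211 and 221 FPKM in the D1240A libraries, 256, 254 and 246 in the F1295A libraries, 250.4, 248 and 247 in the WT libraries and 183, 179.6 and 187 in the TKO libraries. The D1240A libraries lay between the other lines with a vector and TKO, and did not overlap with either side. HSPA5 rose in WT (log2 change 0.44, SE 0.029, adjusted p = 1.75e-07), in F1295A (log2 change 0.46, SE 0.029, adjusted p = 1.45e-07) and in D1240A against TKO (log2 change 0.25, SE 0.029, adjusted p = 2.23e-05), all with limma. It was lower in D1240A than in WT (log2 change -0.18, SE 0.029, adjusted p = 0.00119) and than in F1295A (log2 change -0.20, SE 0.029, adjusted p = 0.00281), whereas F1295A against WT gave 0.020 (adjusted p = 0.798). SDF2L1, a partner of BiP and its J-protein DNAJB11, also had D1240A between TKO and the other lines in its means, with 97.4, 86.5 and 91.1 FPKM in the D1240A libraries, 106, 113 and 118 in the F1295A libraries, 119, 117 and 112 in the WT libraries and 89.2, 80.7 and 90.5 in the TKO libraries. D1240A and TKO libraries overlapped for SDF2L1, and D1240A against TKO was not called (0.079, adjusted p = 0.282). It was lower in D1240A than in WT (log2 change -0.34, SE 0.056, adjusted p = 0.00154) and than in F1295A (log2 change -0.29, SE 0.056, adjusted p = 0.0141, limma), and the difference from F1295A was lost without D1240A replicate 2 (adjusted p = 0.0512), F1295A replicate 2 (0.0544) or F1295A replicate 3 (0.0592).

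Of the J-domain cofactors that hand clients to BiP, DNAJC3 had 14.8, 15.7 and 15.5 FPKM in the D1240A libraries, 15.3, 15.2 and 14.0 in the F1295A libraries, 15.4, 15.3 and 15.5 in the WT libraries and 8.69, 8.25 and 8.18 in the TKO libraries. All 9 libraries with a vector were above all 3 TKO libraries, and DNAJC3 rose by 0.83 in D1240A, 0.79 in F1295A and 0.84 in WT against TKO (limma adjusted p = 6.37e-08, 8.55e-08 and 4.22e-08). DNAJB9, known as a strong target of spliced XBP1, averaged 11.4 ± 1.96 FPKM in D1240A, 11.4 ± 0.803 in F1295A, 12.9 ± 0.184 in WT and 10.5 ± 0.725 in TKO cells. It was called higher in WT against TKO (log2 change 0.29, SE 0.10, adjusted p = 0.0284, limma), a call lost without any 1 of the WT libraries or without TKO replicate 2 or 3 (adjusted p from 0.055 to 0.0985). DNAJB11 averaged 151 ± 15.6 FPKM in D1240A, 171 ± 5.83 in F1295A, 162 ± 11.6 in WT and 160.3 ± 4.80 in TKO cells. It was called nowhere. MANF, a small secreted protein induced by ER stress, averaged 74.4 ± 4.45 FPKM in D1240A, 83.0 ± 1.63 in F1295A, 78.4 ± 4.42 in WT and 70.1 ± 4.61 in TKO cells. It rose against TKO in F1295A (adjusted p = 0.00419, limma) and in WT cells (adjusted p = 0.0342), but the WT call was lost without WT replicate 2 or 3 or TKO replicate 2 or 3 (adjusted p from 0.0555 to 0.15).

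HSP90B1 (GRP94), the ER-resident HSP90, had 343, 334 and 354 FPKM in the D1240A libraries, 333, 342 and 323 in the F1295A libraries, 336, 344 and 347 in the WT libraries and 359, 361 and 359.6 in the TKO libraries. It was called lower in F1295A against TKO (log2 change -0.11, SE 0.030, adjusted p = 0.00784, limma) and was not called in WT against TKO (-0.074, adjusted p = 0.0587), where leaving out D1240A replicate 2 brought the adjusted p to 0.0437. HYOU1, the nucleotide exchange factor of BiP, averaged 60.0 ± 0.673 FPKM in D1240A, 60.7 ± 1.16 in F1295A, 58.9 ± 1.08 in WT and 57.6 ± 0.791 in TKO cells. Its only call was a small rise in F1295A against TKO (log2 change 0.074, SE 0.027, adjusted p = 0.0423, limma), which was lost without F1295A replicate 1 or 3 or any 1 of the TKO libraries, among others (adjusted p up to 0.14). CRELD2, an ER-resident protein induced by ER stress, averaged 31.8 ± 1.54 FPKM in D1240A, 34.1 ± 2.58 in F1295A, 33.9 ± 2.83 in WT and 32.4 ± 1.24 in TKO cells. It was called in no comparison.

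The promoters of several of these chaperone genes hold the ER stress response elements at which ATF6 and XBP1 are known to act, and a few are printed here because the genes that carry them differed in their changes. The stretches are RefSeq promoter sequence of GRCh38.p14, written 5′ to 3′ on the strand of the gene, with the element in capitals. HSPA5 (chr9:125241383-125241439, minus strand) and PDIA6 (chr2:10812845-10812901, minus strand) hold the long element ERSE, which is CCAAT, then 9 bases of any kind, then CCACG. The PDIA6 stretch lies before 1 of its 2 RefSeq starts and within the gene as GENCODE 29 draws it, and the promoter at the other start holds no such element. HERPUD1 (chr16:56931995-56932043, plus strand), SDF2L1 (chr22:21642084-21642132, plus strand) and HYOU1 (chr11:119057266-119057420, minus strand) hold the short element ERSE-II, which is ATTGG, then 1 base, then CCACG, in SDF2L1 and HYOU1 on the opposite strand.
HSPA5: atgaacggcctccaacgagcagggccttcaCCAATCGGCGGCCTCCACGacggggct
PDIA6: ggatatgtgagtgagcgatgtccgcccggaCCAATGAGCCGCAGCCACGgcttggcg
HERPUD1: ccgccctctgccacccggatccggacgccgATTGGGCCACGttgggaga
SDF2L1: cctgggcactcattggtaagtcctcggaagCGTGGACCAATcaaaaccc
HYOU1: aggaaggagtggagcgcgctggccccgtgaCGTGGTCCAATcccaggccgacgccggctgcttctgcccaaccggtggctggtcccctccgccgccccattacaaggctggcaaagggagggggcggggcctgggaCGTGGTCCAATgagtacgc

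HYOU1 carries 2 copies of the short element, and its level differed by no more than 0.074 on the log2 scale in any comparison, while HERPUD1, with 1 copy, was called in all 6. Promoters of 300 bases (250 before and 50 after the start, both strands searched) were in the RefSeq table for 41 of the 47 genes, DERL3, SPCS1, KDELR2, DERL1, SEC24D and PDIA3 having none there. The long element was in 7 of 41 (17.1%): CALR, CANX, CRELD2, ERO1B, HSP90B1, HSPA5 and PDIA6. It was in 0.092% of all 27305 genes of the table. The short element was in 3 of 41 (7.3%, against 0.07% of all genes), and TGACGTGG, the core of another element bound by XBP1 and ATF6, in 4 of 41 (9.8%, against 0.927%), namely HYOU1, where it overlaps a short element, KDELR3, SSR3 and SSR4. The shared end CCACG, which the long and short elements contain, was in 31 of 41 (75.6%, against 42.1%). These elements were first described in promoters of such genes, so their frequency here is background and not a result. Of the 10 genes with a long or short element, 6 rose in WT against TKO, and of the 30 tested genes with a promoter in the table and neither element, 20 rose and 3 fell. In D1240A against WT, 4 of the 10 and 10 of the 30 fell, and in D1240A against F1295A 4 of the 10 and 3 of the 30. Over all tested genes, 25.8% rose and 23.9% fell in WT against TKO, 10.9% fell in D1240A against WT and 3.09% in D1240A against F1295A. Without D1240A replicate 2, SDF2L1 of the 4 and CLGN and SSR4 of the 3 were no longer called against F1295A. No ER gene was called in that comparison when only D1240A and F1295A libraries were fitted. The bearing of the elements on these changes was not tested. Presence of the letters is a description of the window only.

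Of the lectin chaperones, which hold glycoproteins while they fold, CLGN showed the largest change of the set and CALR was called in none of the 6 comparisons of the fit described above. CLGN (calmegin; chr4:140388455-140427968, minus strand, GENCODE 29 on GRCh38), a relative of calnexin known from male germ cells of the mouse, had 5.09, 4.70 and 5.08 FPKM in the D1240A libraries, 5.63, 6.22 and 5.95 in the F1295A libraries, 10.8, 11.1 and 10.3 in the WT libraries and 1.97, 1.91 and 1.84 in the TKO libraries. The 4 groups did not overlap, and TKO libraries were all under 2 FPKM. It rose in WT (log2 change 2.22, SE 0.061, adjusted p = 1.22e-10), F1295A (log2 change 1.42, SE 0.061, adjusted p = 6.23e-09) and D1240A cells (log2 change 1.18, SE 0.061, adjusted p = 3.24e-08) against TKO (limma). Against WT it fell by 1.04 in D1240A (adjusted p = 1.36e-06) and by 0.80 in F1295A (adjusted p = 7.14e-05). D1240A against F1295A passed narrowly (log2 change -0.24, SE 0.061, adjusted p = 0.0436, limma), and this call was lost when any 1 of the 12 libraries other than D1240A replicate 1 or F1295A replicate 1 was left out (adjusted p from 0.054 to 0.145).

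CANX (calnexin; chr5:179678628-179730925, plus strand), the membrane-bound lectin chaperone, had 401, 351 and 405 FPKM in the D1240A libraries, 428, 436 and 416 in the F1295A libraries, 386, 405 and 386 in the WT libraries and 199.6, 208 and 229.7 in the TKO libraries. All libraries with a vector were above all TKO libraries, with log2 changes of 0.86 in D1240A, 1.01 in F1295A and 0.89 in WT cells (limma adjusted p = 4.11e-07, 9.53e-08 and 2.23e-07). No comparison between lines with a vector called it. CALR (calreticulin), its soluble counterpart, averaged 661 ± 12.8 FPKM in D1240A, 675 ± 0.722 in F1295A, 671 ± 9.03 in WT and 646 ± 11.6 in TKO cells. In WT against TKO its change was 0.055 (adjusted p = 0.09), and in F1295A against TKO it was called (0.065, adjusted p = 0.0335) when D1240A replicate 2 was left out. Library weights called it in F1295A (adjusted p = 0.0354) and WT against TKO (0.0471). With the median change of its 50 neighbouring tested genes removed, CALR was called higher in D1240A (0.17, adjusted p = 0.000214), F1295A (0.18, 0.000118) and WT against TKO (0.20, 5.72e-05, limma).

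The enzymes that form and shuffle disulfide bonds rose in WT cells in 4 of 6 cases. P4HB, the founding protein disulfide isomerase, had 393, 368 and 381 FPKM in the D1240A libraries, 396, 404 and 413 in the F1295A libraries, 415, 408 and 409.9 in the WT libraries and 295, 302 and 293 in the TKO libraries. WT libraries were above all D1240A and TKO libraries, and F1295A and WT libraries overlapped. P4HB rose in WT (log2 change 0.47, SE 0.029, adjusted p = 9.97e-08), F1295A (log2 change 0.45, SE 0.029, adjusted p = 1.93e-07) and D1240A cells (log2 change 0.36, SE 0.029, adjusted p = 1.3e-06) against TKO (limma). Its lower level in D1240A than in WT (log2 change -0.11, SE 0.029, adjusted p = 0.0201, limma) was no longer called without D1240A replicate 2 (adjusted p = 0.0606), D1240A replicate 3 (0.0527) or WT replicate 1 (0.0717). PDIA6, an isomerase that binds BiP, was graded more evenly, at 197, 194 and 192 FPKM in the D1240A libraries, 212, 210.3 and 212 in the F1295A libraries, 223, 222 and 216 in the WT libraries and 177, 175 and 175 in the TKO libraries. Its 4 groups did not overlap. PDIA6 was lower in D1240A than in WT (log2 change -0.18, SE 0.023, adjusted p = 0.000293) and than in F1295A (log2 change -0.12, SE 0.023, adjusted p = 0.0125, limma), and rose in WT against TKO (log2 change 0.33, SE 0.023, adjusted p = 3.03e-07).

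PDIA4, another isomerase of the ER lumen, followed a different pattern, with 118, 114 and 113 FPKM in the D1240A libraries, 128, 127 and 126 in the F1295A libraries, 137, 137 and 136 in the WT libraries and 134, 136 and 139.6 in the TKO libraries. WT and TKO libraries overlapped and their difference was 0.001 (adjusted p = 0.99), whereas both altered lines were below TKO, with log2 changes of -0.24 in D1240A and -0.10 in F1295A (limma adjusted p = 1.26e-05 and 0.00582). D1240A was also below WT (log2 change -0.25, SE 0.026, adjusted p = 8.76e-05) and F1295A (log2 change -0.14, SE 0.026, adjusted p = 0.0123, limma), and F1295A against WT missed the threshold (-0.11, adjusted p = 0.0567). PDIA4 lies at chr7:149003062-149028641, minus strand, where the 50 neighbouring tested genes had a median change of -0.28 in D1240A and -0.25 in F1295A against TKO. With the neighbours' median removed, the change against TKO was 0.037 in D1240A, 0.15 in F1295A and 0.27 in WT cells, so both altered lines changed sign. D1240A was then not called (adjusted p = 0.285), and F1295A (0.000745) and WT (6.15e-06, limma) were called higher. PDIA3, which works with calnexin and calreticulin, averaged 161 ± 7.18 FPKM in D1240A, 178 ± 8.25 in F1295A, 165 ± 7.02 in WT and 155 ± 10.3 in TKO cells. It was called in F1295A against TKO (log2 change 0.20, SE 0.054, adjusted p = 0.00924, limma), and in WT against TKO without TKO replicate 1 (0.14, adjusted p = 0.0477). Of the oxidases that recharge the isomerases, ERO1B had 3.47, 3.57 and 2.50 FPKM in the D1240A libraries, 2.86, 2.84 and 3.00 in the F1295A libraries, 3.48, 3.21 and 3.54 in the WT libraries and 2.09, 2.09 and 1.77 in the TKO libraries. It rose in all 3 lines against TKO, by 0.56 in D1240A, 0.46 in F1295A and 0.66 in WT cells (limma adjusted p = 0.00183, 0.00597 and 0.000462). ERO1A averaged 25.8 ± 1.73 FPKM in D1240A, 24.7 ± 0.329 in F1295A, 28.2 ± 0.921 in WT and 24.3 ± 0.505 in TKO cells. It rose in WT against TKO only (log2 change 0.21, SE 0.046, adjusted p = 0.00261, limma). Whether it rose more in WT than in the altered lines was tested directly, with -0.13 (adjusted p = 0.0733) in D1240A and -0.19 (adjusted p = 0.0574) in F1295A against WT. Without D1240A replicate 2, ERO1A was called in D1240A against TKO (0.13, adjusted p = 0.03) and in F1295A against WT (adjusted p = 0.0236, limma). F1295A against WT was also called without D1240A replicate 3 (0.0319) and with library weights (0.0263). In D1240A against WT, ERO1A was called lower without D1240A replicate 3 (-0.18, adjusted p = 0.0226) and with the neighbours' median removed (-0.16, 0.0317, limma).

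In WT against TKO, the genes of ER-associated degradation held the second largest rise and the largest fall of the set. EDEM3 (chr1:184690231-184754913, minus strand), a mannosidase-like protein that marks misfolded glycoproteins for removal, had 123, 135 and 129.5 FPKM in the D1240A libraries, 132, 129 and 127 in the F1295A libraries, 131, 134 and 137 in the WT libraries and 57.9, 57.0 and 55.0 in the TKO libraries. All 9 libraries with a vector lay far above every TKO library, with rises of 1.18 in D1240A, 1.18 in F1295A and 1.24 in WT cells (limma adjusted p = 5.15e-10, 4.01e-10 and 2.18e-10). No difference among the 3 lines was called. Its relative EDEM2 averaged 16.2 ± 1.18 FPKM in D1240A, 17.1 ± 0.464 in F1295A, 17.1 ± 1.01 in WT and 13.8 ± 0.491 in TKO cells. It rose in all 3 lines against TKO. EDEM1 averaged 8.65 ± 0.424 FPKM in D1240A, 8.33 ± 0.309 in F1295A, 9.34 ± 0.260 in WT and 8.35 ± 0.640 in TKO cells. In the fit described above no comparison called it, with 0.16 (adjusted p = 0.0527) in WT against TKO. That comparison called EDEM1 without D1240A replicate 1 (adjusted p = 0.0473) or TKO replicate 2 (0.0161), and 4 other settings also called it (0.0104 with the neighbours' median removed, 0.049 to 0.0498 with median-ratio scaling, a filter at 1 FPKM or library weights).

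HERPUD1, a membrane protein that organises the degradation complex and is a known target of the unfolded protein response, had 202, 204 and 203 FPKM in the D1240A libraries, 238, 231 and 225 in the F1295A libraries, 262, 256 and 257 in the WT libraries and 135, 137 and 142 in the TKO libraries. The 4 groups did not overlap, and HERPUD1 was called in all 6 comparisons. It rose against TKO in D1240A (log2 change 0.56, SE 0.028, adjusted p = 2.94e-08), F1295A (log2 change 0.74, SE 0.028, adjusted p = 2.27e-09) and WT (log2 change 0.90, SE 0.028, adjusted p = 3.48e-10), all with limma. It was lower than WT in D1240A (log2 change -0.35, SE 0.028, adjusted p = 1.34e-05) and in F1295A (log2 change -0.16, SE 0.028, adjusted p = 0.0122), with D1240A below F1295A (log2 change -0.18, SE 0.028, adjusted p = 0.00443, limma). The call in F1295A against WT was lost without F1295A replicate 2 (adjusted p = 0.0546), F1295A replicate 3 (0.0523) or WT replicate 1 (0.0627). DERL3, a Derlin enriched in secretory cells, had 71.4, 67.0 and 68.3 FPKM in the D1240A libraries, 77.3, 77.6 and 81.6 in the F1295A libraries, 97.3, 91.0 and 94.4 in the WT libraries and 64.3, 65.7 and 66.2 in the TKO libraries. WT libraries were highest, F1295A next, and D1240A and TKO lowest without overlapping. DERL3 fell against WT in D1240A (log2 change -0.45, SE 0.035, adjusted p = 1.01e-05) and F1295A (log2 change -0.26, SE 0.035, adjusted p = 0.00343), and D1240A was below F1295A (log2 change -0.19, SE 0.035, adjusted p = 0.0117, limma), while D1240A against TKO was 0.074 (adjusted p = 0.111). It rose against TKO by 0.27 in F1295A (adjusted p = 6.97e-05) and by 0.52 in WT cells (adjusted p = 2.27e-07, limma). No source used here gives the authors' strand setting. A share of 77.0% of the exon bases of DERL3 is common to SMARCB1 on the opposite strand, so reads of the pair could be confused. SMARCB1 averaged 74.4 FPKM in D1240A, 78.3 in F1295A, 80.7 in WT and 79.2 in TKO cells. It was called in no comparison.

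SELENOS (chr15:101270817-101277500, minus strand), a selenoprotein that links the Derlins to the extraction ATPase, went the other way, with 89.8, 79.4 and 82.9 FPKM in the D1240A libraries, 76.3, 76.9 and 76.8 in the F1295A libraries, 80.1, 75.3 and 76.0 in the WT libraries and 129.6, 133 and 132 in the TKO libraries. Every TKO library was above every other. It fell by 0.65 in D1240A, by 0.77 in F1295A and by 0.77 in WT cells against TKO (limma adjusted p = 2.1e-07, 4.09e-08 and 3.63e-08). In D1240A against WT its change was 0.12 (adjusted p = 0.0626) and, without D1240A replicate 2, 0.16 (adjusted p = 0.0186, limma). DERL1 averaged 53.9 ± 3.67 FPKM in D1240A, 52.4 ± 1.59 in F1295A, 49.3 ± 3.45 in WT and 57.3 ± 1.79 in TKO cells. DERL2 averaged 18.5 ± 1.86 FPKM in D1240A, 19.9 ± 0.199 in F1295A, 17.1 ± 0.283 in WT and 19.1 ± 0.552 in TKO cells. Both fell in WT against TKO, DERL1 by 0.22 (adjusted p = 0.00784) and DERL2 by 0.16 (adjusted p = 0.0368, limma), and neither was called in the altered lines against TKO in the fit described above. Without D1240A replicate 1, DERL2 was called lower in D1240A against TKO (-0.13, adjusted p = 0.0223). With the neighbours' median removed, DERL1 was called lower in D1240A (-0.23, adjusted p = 0.00799) and F1295A against TKO (-0.25, 0.00489). Library weights (0.0478) and a fit of only the compared groups (0.0276) also called DERL1 lower in F1295A against TKO. With the neighbours' median removed DERL2 was not called in WT (-0.053, 0.487, limma). The DERL2 call was lost without any 1 of the WT libraries (adjusted p from 0.0622 to 0.101) or without TKO replicate 2 (0.087) or 3 (0.0999). In F1295A against WT, DERL2 was not called with all libraries fitted, though every F1295A library was above every WT library. It was called higher there without D1240A replicate 1 (0.215, adjusted p = 0.0115), with library weights (0.0416) and with only the compared groups fitted (0.0338, limma). Without D1240A replicate 1, DERL2 was also called lower in D1240A than in F1295A (-0.18, adjusted p = 0.021). The ubiquitin ligase SYVN1 (HRD1) and its partner SEL1L both rose. SYVN1 averaged 16.1 ± 0.440 FPKM in D1240A, 17.1 ± 0.309 in F1295A, 16.8 ± 0.305 in WT and 13.9 ± 0.338 in TKO cells. SEL1L averaged 33.2 ± 1.52 FPKM in D1240A, 33.5 ± 2.33 in F1295A, 34.6 ± 0.699 in WT and 28.2 ± 1.32 in TKO cells. Each was called higher in all 3 lines against TKO, with limma adjusted p from 5.19e-05 to 0.000869 for SYVN1 and from 0.000896 to 0.00466 for SEL1L, and in no comparison among the lines. SYVN1 shares 7.2% of its exon bases with FAU on the same strand. FAU averaged 799 FPKM as deposited, so some of its reads could have been assigned to SYVN1, which was not tested.

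**Figure D3:**
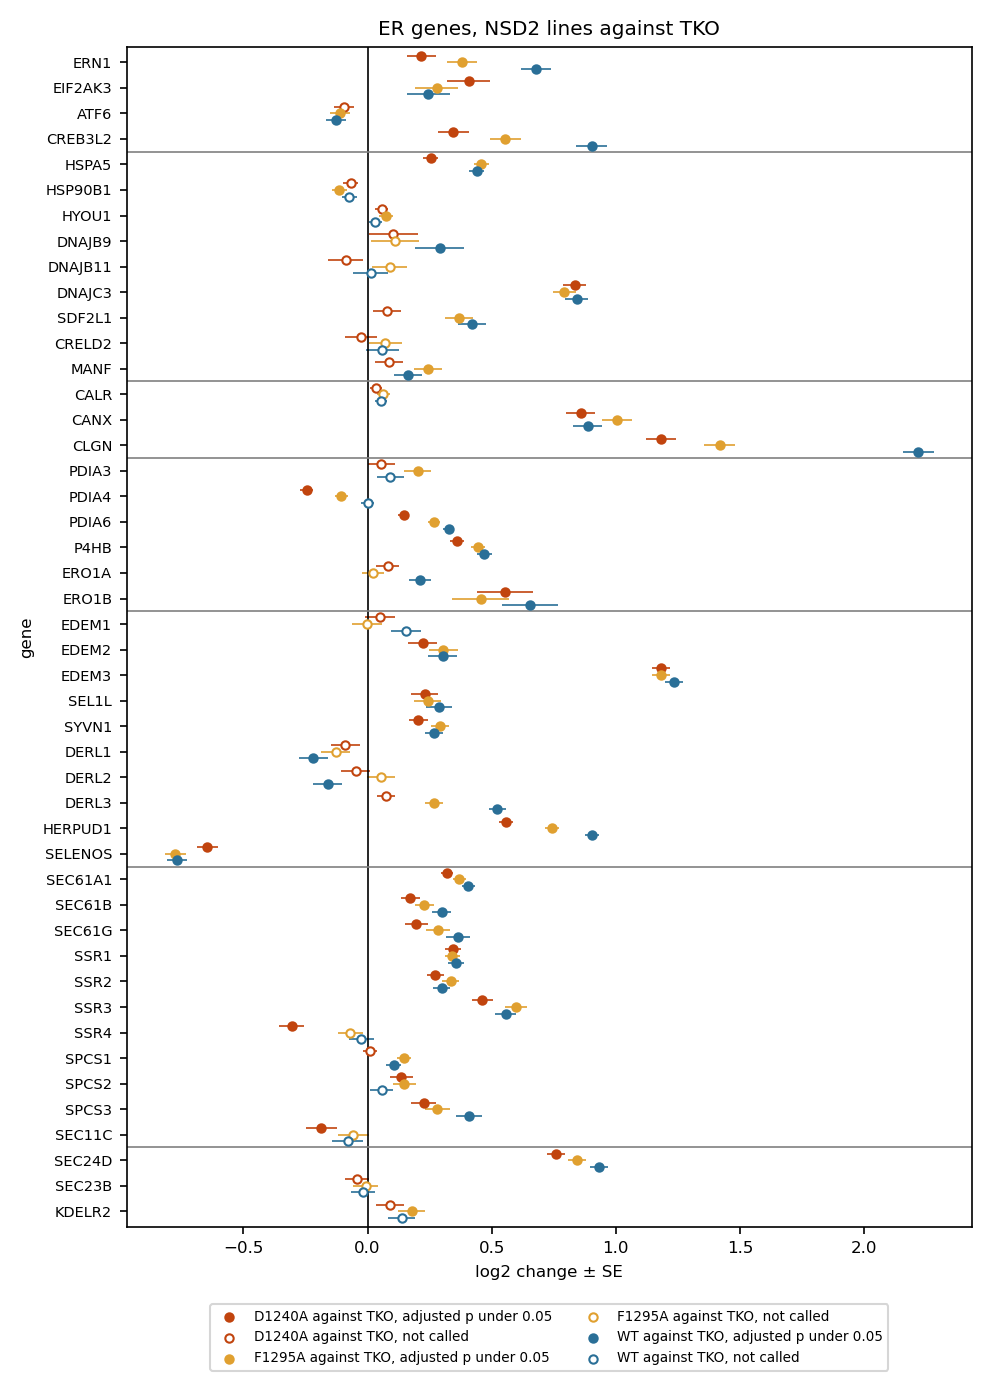
Each ER gene has its log2 change ± SE against TKO in D1240A, F1295A and WT cells, filled where the limma adjusted p was under 0.05, with horizontal lines between roles. Points to the right of 0 are higher than in TKO cells. CLGN reaches 2.22 in WT, and SELENOS is left of 0 in all 3 lines.

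Of 11 translocon and signal peptidase genes, 8 rose in WT against TKO and 6 fell in D1240A against WT, all by modest amounts. All 3 subunits of the SEC61 channel were higher in every line with a vector than in TKO. SEC61A1, the pore, averaged 162 ± 2.69 FPKM in D1240A, 168 ± 2.63 in F1295A, 172 ± 1.35 in WT and 129.6 ± 2.13 in TKO cells. SEC61B averaged 344 ± 15.6 FPKM in D1240A, 358 ± 5.91 in F1295A, 376 ± 14.7 in WT and 305 ± 6.12 in TKO cells. SEC61G, the most abundant member, averaged 745 ± 46.6 FPKM in D1240A, 791 ± 37.1 in F1295A, 835 ± 27.6 in WT and 649 ± 5.43 in TKO cells. The rises ran from 0.17 for SEC61B in D1240A to 0.41 for SEC61A1 in WT cells, with limma adjusted p no higher than 0.00549. All 3 were lower in D1240A than in WT by a narrow margin, SEC61A1 at -0.086 (adjusted p = 0.031), SEC61B at -0.13 (adjusted p = 0.0397) and SEC61G at -0.17 (adjusted p = 0.0311, limma). Without D1240A replicate 2, SEC61B (adjusted p = 0.119) and SEC61G (0.0826) were not called, and without WT replicate 1 or 3 none of the 3 was (0.0685 to 0.138). SEC61A1 was also lost without D1240A replicate 1 (0.0671) or 3 (0.0961) or WT replicate 2 (0.0608), and SEC61B without D1240A replicate 3 (0.0637), F1295A replicate 2 (0.0525) or 3 (0.0506) or TKO replicate 2 (0.0539) or 3 (0.0556).

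Of the translocon-associated SSR (TRAP) complex, which assists the channel, SSR1 averaged 95.0 ± 1.19 FPKM in D1240A, 94.8 ± 3.23 in F1295A, 95.8 ± 2.39 in WT and 74.7 ± 1.49 in TKO cells. SSR2 averaged 586 ± 24.0 FPKM in D1240A, 612 ± 7.06 in F1295A, 596 ± 7.95 in WT and 485 ± 16.7 in TKO cells. For SSR3 the means were 204 ± 10.8 FPKM in D1240A, 224 ± 5.59 in F1295A, 218 ± 6.66 in WT and 148 ± 6.08 in TKO cells. These 3 rose in each line against TKO, SSR3 most, by 0.46 in D1240A, 0.60 in F1295A and 0.56 in WT cells, and did not pass in any comparison among the lines. SSR4 (chrX:153793516-153798505, plus strand), the remaining subunit, had 550.1, 473 and 504 FPKM in the D1240A libraries, 571, 610.0 and 616 in the F1295A libraries, 623, 616 and 614 in the WT libraries and 603, 635 and 648 in the TKO libraries. D1240A libraries were lowest and the other 3 groups overlapped. SSR4 was lower in D1240A than in WT (log2 change -0.28, SE 0.051, adjusted p = 0.003), F1295A (log2 change -0.24, SE 0.051, adjusted p = 0.0234) and TKO cells (log2 change -0.31, SE 0.051, adjusted p = 0.000458, limma), and the difference from F1295A was lost without replicate 2 or 3 of either line (adjusted p from 0.065 to 0.0842). Its 50 neighbouring tested genes on chromosome X had a median change of -0.48 in D1240A, -0.46 in F1295A and -0.48 in WT against TKO. With that median removed, SSR4 was higher than in TKO in all 3 lines, by 0.18 in D1240A, 0.39 in F1295A and 0.45 in WT, so the sign of its change against TKO depends on that step.

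Signal peptidase cuts the signal peptide from the entering chain. Its subunit SPCS3 had 88.0, 86.4 and 92.0 FPKM in the D1240A libraries, 86.6, 97.3 and 93.1 in the F1295A libraries, 101, 104 and 97.1 in the WT libraries and 80.7, 74.0 and 72.9 in the TKO libraries. It rose in all 3 lines against TKO, in WT with log2 change 0.41, SE 0.051, adjusted p = 3.66e-05. It was lower in D1240A than in WT (log2 change -0.18, SE 0.051, adjusted p = 0.0272, limma), a call lost without D1240A replicate 1 (adjusted p = 0.0597) or 2 (0.0798) or WT replicate 1 (0.0755) or 2 (0.0927). SPCS1 averaged 240.4 ± 7.17 FPKM in D1240A, 264 ± 5.96 in F1295A, 257 ± 3.46 in WT and 239 ± 4.50 in TKO cells. It rose in F1295A (log2 change 0.15, SE 0.029, adjusted p = 0.00161) and WT (log2 change 0.10, SE 0.029, adjusted p = 0.0109) against TKO, and was lower in D1240A than in F1295A (log2 change -0.14, SE 0.029, adjusted p = 0.024) and WT (log2 change -0.094, SE 0.029, adjusted p = 0.0446, limma). Without D1240A replicate 2, neither of these D1240A calls was made, with adjusted p = 0.0718 against F1295A and 0.133 against WT. The call against WT was kept only without D1240A replicate 1 or F1295A replicate 2 or 3, and that against F1295A was also lost without D1240A replicate 3 (0.0515) or F1295A replicate 2 (0.0909). NEK4, on the opposite strand, shares 50.7% of the exon bases of SPCS1. It averaged 9.22 FPKM in D1240A, 9.45 in F1295A, 8.67 in WT and 8.98 in TKO cells. No comparison called it. SPCS2 averaged 164 ± 0.269 FPKM in D1240A, 166 ± 3.78 in F1295A, 156 ± 3.70 in WT and 149.7 ± 11.7 in TKO cells. It rose in D1240A (adjusted p = 0.0302) and F1295A against TKO (adjusted p = 0.0195, limma) and was not called in WT, at 0.057 (adjusted p = 0.329). Without TKO replicate 1 it was called there too (0.12, adjusted p = 0.00891). The F1295A call was lost without F1295A replicate 2 (0.0655) or TKO replicate 2 (0.0854) or 3 (0.0825), and the D1240A call was lost without any 1 of the D1240A libraries (adjusted p from 0.0539 to 0.0644) or TKO replicate 2 (0.122) or 3 (0.118). SEC11C, a catalytic subunit, averaged 432 ± 43.5 FPKM in D1240A, 471 ± 24.3 in F1295A, 463 ± 15.9 in WT and 489 ± 13.1 in TKO cells. Its 1 call with all libraries was a lower level in D1240A than in TKO (log2 change -0.19, SE 0.063, adjusted p = 0.0317, limma), lost without D1240A replicate 1 (adjusted p = 0.0777) or 2 (0.119) or TKO replicate 1 (0.0957) or 2 (0.0642). Without D1240A replicate 3, SEC11C was called lower in D1240A than in WT (-0.18, adjusted p = 0.0377).

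Traffic out of the ER was represented by SEC24D, SEC23B and the KDEL receptors. SEC24D (chr4:118722823-118838683, minus strand), the cargo-selecting subunit of the COPII coat, had 28.1, 27.6 and 28.0 FPKM in the D1240A libraries, 31.0, 29.6 and 28.2 in the F1295A libraries, 31.6, 31.1 and 31.7 in the WT libraries and 16.6, 16.1 and 16.2 in the TKO libraries. All libraries with a vector were above all TKO libraries, with log2 changes of 0.76 in D1240A, 0.84 in F1295A and 0.93 in WT (limma adjusted p = 1.85e-08, 6.66e-09 and 2.35e-09), and D1240A was lower than WT (log2 change -0.17, SE 0.036, adjusted p = 0.00732). SEC23B, its partner in the inner coat, averaged 22.9 ± 0.947 FPKM in D1240A, 23.4 ± 1.07 in F1295A, 23.2 ± 0.572 in WT and 23.6 ± 1.20 in TKO cells. It was called in no comparison. KDELR2, which returns escaped chaperones to the ER, averaged 36.6 ± 2.15 FPKM in D1240A, 38.9 ± 2.38 in F1295A, 37.8 ± 1.47 in WT and 34.3 ± 1.21 in TKO cells. In the fit of all libraries described above, KDELR2 was called in 1 comparison, higher in F1295A against TKO (log2 change 0.18, SE 0.055, adjusted p = 0.0193, limma), where F1295A and TKO libraries did not overlap. That call was lost without F1295A replicate 2 (adjusted p = 0.0732) or 3 (0.0693) or TKO replicate 1 (0.0744). In WT against TKO KDELR2 changed by 0.14 (adjusted p = 0.0548), and it was called without D1240A replicate 1 (0.0405) or 3 (0.0442) or F1295A replicate 1 (0.0319), with library weights (0.0396) and with only the compared groups fitted (0.0215).

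**Figure D4:**
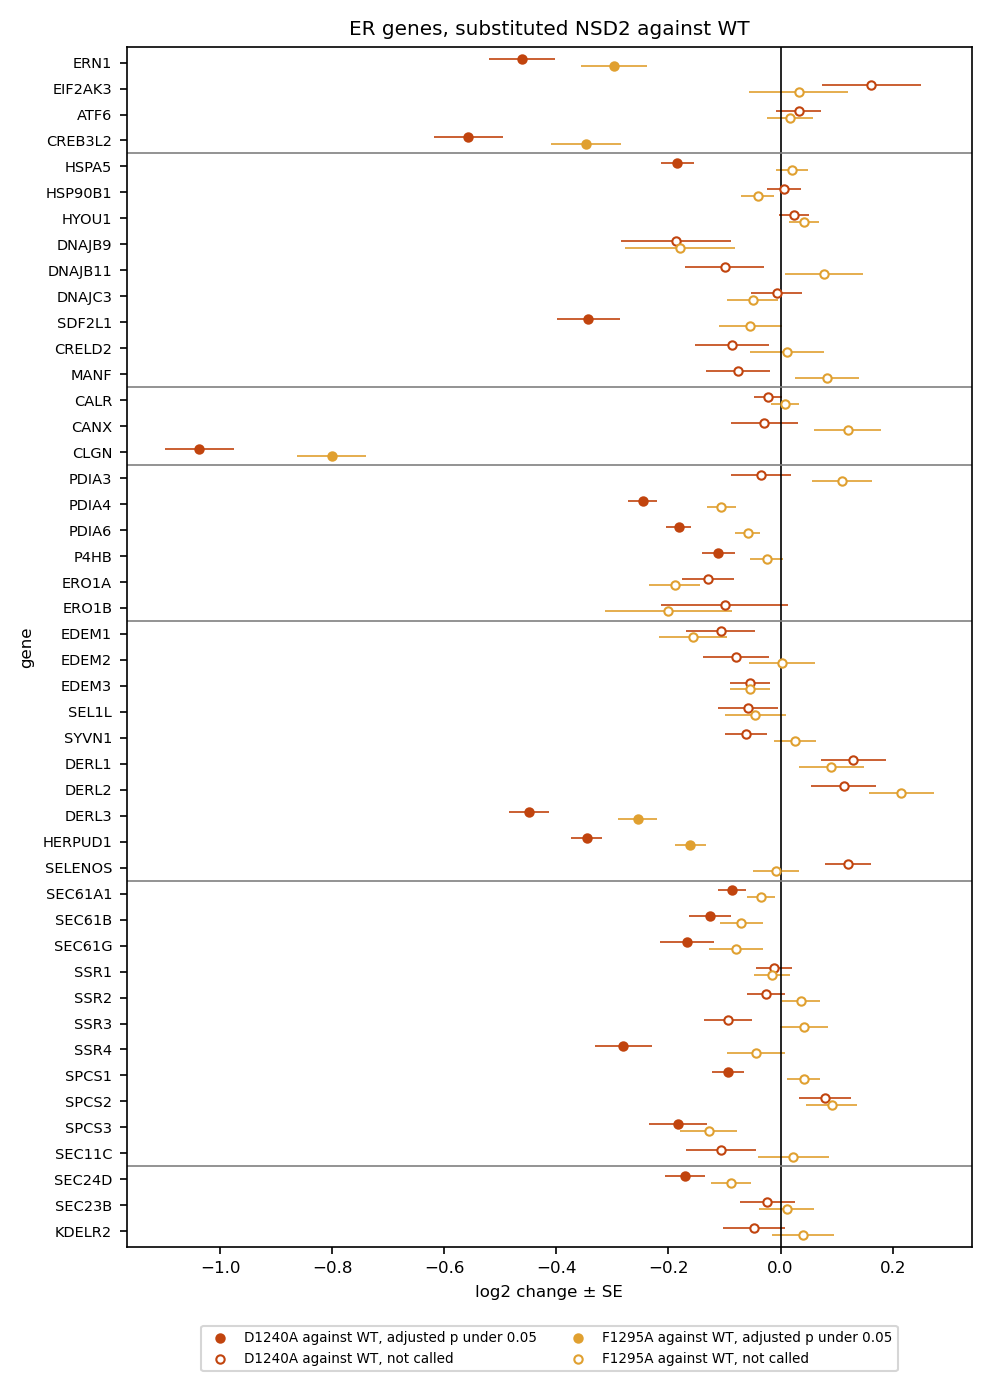
Each ER gene has its log2 change ± SE against WT in D1240A and F1295A cells, filled where the limma adjusted p was under 0.05. The filled points are all left of 0: 17 for D1240A, down to -1.04 for CLGN, and 5 for F1295A, down to -0.80 for CLGN.

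Some members lie in chromosome regions whose genes moved together between the lines and TKO. Among the 50 neighbouring tested genes, the median change in WT against TKO was 0.62 around DNAJC3 (chr13:95677139-95794989, plus strand) and 0.52 around CANX, against own changes of 0.84 and 0.89. Removing these medians left 0.23 for DNAJC3 and 0.37 for CANX, both still called. Around CREB3L2 the neighbours fell (-0.30) while the gene rose (0.90), and around CLGN (0.13), EDEM3 (0.12), SEC24D (0.11), HERPUD1 (-0.077) and SELENOS (0.046) the medians were much smaller than the change of the gene. With the neighbours' median removed from every gene, 26 ER genes were higher and 3 lower in D1240A, 33 and 3 in F1295A and 34 and 3 in WT against TKO, beside 20.8% (D1240A), 22.4% (F1295A) and 25.2% (WT) of all genes called higher and 20.9%, 20.5% and 22.4% called lower. The genes called were not all the same as before. Calls lost in D1240A against TKO were those of SEC61B (limma adjusted p = 0.0709), SPCS3 (0.186), SEL1L (0.271), SPCS2 (0.0992), SEC11C (0.687) and PDIA4 (0.285). Those lost in F1295A against TKO were HSP90B1 (0.081), HYOU1 (0.301), SPCS2 (0.147) and KDELR2 (0.583). P4HB (0.132), SEC61A1 (0.105) and SPCS1 (0.298) were lost in D1240A against WT, and SPCS1 (0.0662) in D1240A against F1295A. The causes of the regional changes were not tested. In D1240A against WT the neighbours' medians of the ER genes were small, from -0.088 around SPCS2 to 0.084 around EDEM1, and 16 members were then lower and 2 higher, beside 11.7% and 8.04% of all genes. In F1295A against WT 5 members were lower and none higher, beside 1.78% and 1.02% of all genes, and in D1240A against F1295A 8 were lower and 1 higher, beside 3.41% and 3.11%.

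**Figure D5:**
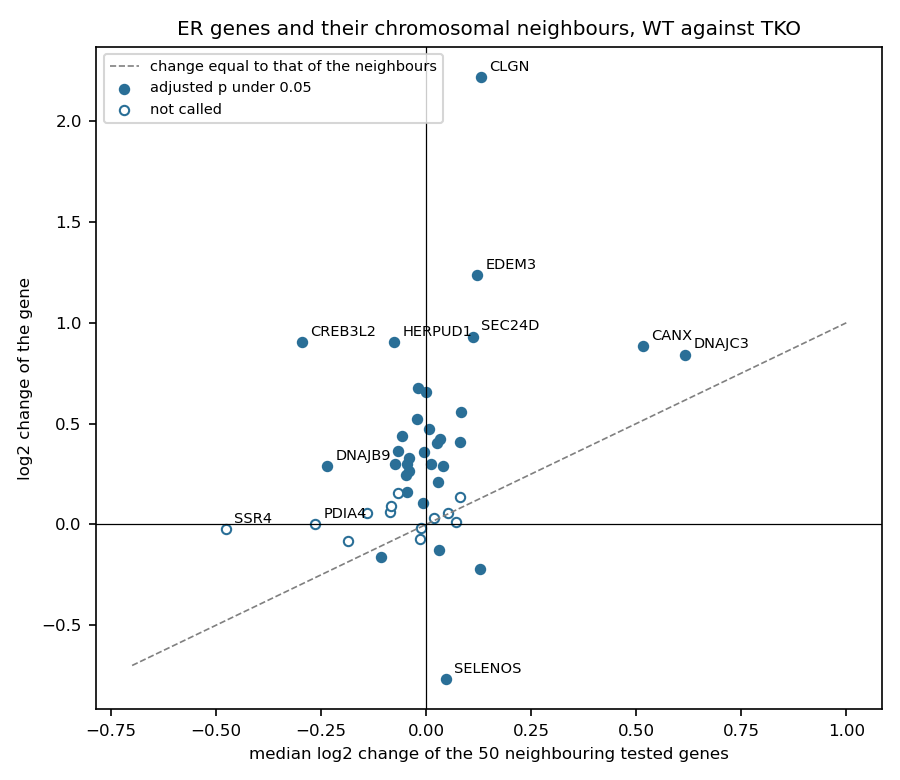
For each tested ER gene, the log2 change in WT against TKO is plotted against the median change of the 50 neighbouring tested genes on its chromosome, and the dashed line marks equal changes. CANX and DNAJC3 lie far to the right, near medians of 0.52 and 0.62, SSR4 far to the left at -0.48, and CLGN, EDEM3 and SELENOS near the middle.

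Another 136 genes of the same pathways, listed by role, were read beside the set, and 130 of them were tested. In WT against TKO, 60 rose and 27 fell, with a median change of 0.087, in D1240A against WT 5 rose and 31 fell (median -0.04), and in F1295A against WT 4 fell and none rose. Over all tested genes, 25.8% were called higher and 23.9% lower in WT against TKO, 8.21% and 10.9% in D1240A against WT, and 0.896% and 1.81% in F1295A against WT. The oligosaccharyltransferase and glycan-trimming genes had 13 of 17 higher and 1 lower in WT against TKO, for example RPN1, a core subunit, at 208 FPKM in WT and 158 in TKO cells. In D1240A against WT, 7 of these 17 fell. The other chaperones and cofactors had 10 of 19 higher and 4 lower in WT against TKO and 8 of 19 lower in D1240A against WT, among them FKBP11, a prolyl isomerase of secretory cells, at 52.3 FPKM in D1240A and 65.4 in WT cells. Of 12 other disulfide-related genes, 5 rose and 4 fell in WT against TKO. TXNDC5, an isomerase abundant in plasma cells, rose by 0.84 on the log2 scale in WT against TKO and was called lower than WT in D1240A (-0.51) and in F1295A (-0.23). PRDX4, the ER peroxiredoxin, fell by 0.62 in WT against TKO, in a region of chromosome X whose neighbours had a median of -0.89. With that median removed, PRDX4 was instead called higher in WT (0.27, adjusted p = 1.29e-05, limma). Among other regulators of the response, 8 of 16 rose and 4 fell in WT against TKO. On the same scale and in the same comparison, ATF4, the factor downstream of EIF2AK3, rose by 0.89, BHLHA15, a factor of secretory cells, by 1.25, and MBTPS2, a protease that releases ATF6 and CREB3L2, fell by 1.10, with neighbours at -0.89. BHLHA15 was also lower in D1240A than in WT (-0.59). Targeting and translocation genes outside the set had 4 of 19 higher and 6 lower in WT against TKO and none called in either altered line against WT. The other degradation genes had 10 of 25 higher and 5 lower, and the other COPII and COPI genes 10 of 22 higher and 3 lower, in WT against TKO.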

How the data were processed

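RNA of 12 libraries, 3 for each of 4 groups, was measured by sequencing. Per the submitters' processing notes, the authors used Trimmomatic 0.36, FastQC 0.11.4, STAR 2.7.9a, RSEM 1.3.1, the GRCh38 genome and DESeq2. The deposited values are FPKM, 1 per feature and library, and the authors' annotation release, strand setting and read depth were not stated. Of 60504 features, 56996 (94.2%) matched GENCODE 29, and 7089 structural RNA features were left out. No 2 libraries were identical.

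Libraries were put on 1 scale by trimming 30% from each side of the log2 ratios to the mean library (genes averaging at least 1 FPKM) and averaging the rest, so a change shared by all genes cannot be seen. Genes with at least 0.5 FPKM in 3 libraries entered 1 limma 3.58.1 fit (R 4.3.3) of log2(FPKM + 0.5) on group, with a variance trend, and 6 contrasts were taken. The pseudocount understates changes of low genes. The steps were tested on simulated data. Alternatives covered scaling, filter, pseudocount, structural RNAs, library weights, libraries fitted, the replicate number, 50 neighbouring genes and each library left out. The 47 genes, the lists beside them and the tests were chosen with earlier results of these data known. Every gene of the set is described, and of the other pathway genes up to 3 per list with the largest called change in WT against TKO could be named. Python 3.11.15, pandas 2.3.3, numpy 2.4.6 and matplotlib 3.10.9 were also used.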

Additional observations from a re-analysis of the deposited data

How the results depend on the processing

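Of 6348 recomputed values of ER genes, 6042 stayed on the same side of the threshold. With the sign unchanged, 236 lost a call and 63 gained one. The other 7 changed sign and were called before the change of setting, after it or both times. Among the 6042, 123 values that were not called changed sign. Without rescaling, WT against TKO had 23 ER genes higher and 1 lower, beside 18.055% and 18.602% of all tested genes. D1240A against TKO had 10 and 5, beside 10.997% and 26.346%, and F1295A against TKO 17 and 1, beside 14.796% and 18.491%. D1240A against WT had 0 and 12, beside 1.7232% and 9.4048%, and F1295A against WT 0 and 2, beside 0.11765% and 0.49827%. D1240A against F1295A had 0 and 0, beside 0.21453% and 0.22145%. PDIA6 (-0.006) and SPCS2 (-0.015) then turned in D1240A against TKO. With library weights, 1 gene (SELENOS) was higher in D1240A and 1 (DERL2) in F1295A against WT, beside 8.21% and 1.49% of all tested genes. With the neighbours' median removed, 2 were higher in D1240A against WT and 1 in D1240A against F1295A, beside 8.04% and 3.11%. SSR4 then changed by 0.176 in D1240A, 0.387 in F1295A and 0.452 in WT against TKO, and PDIA4 by 0.037 in D1240A and 0.147 in F1295A against TKO. Fitting only the compared groups gave 1 (DERL2) higher in F1295A against WT and 0 lower in D1240A against F1295A, beside 0.876% and 0.228%. The cause was not tested. With 1 library left out, counts in WT against TKO ran from 26 to 31 higher and 2 to 5 lower, in D1240A against WT 0 to 2 higher and 11 to 16 lower, in F1295A against WT 0 to 1 higher and 2 to 6 lower, and in D1240A against F1295A 0 to 1 higher and 5 to 12 lower. Among all tested genes, the same fits called 23.3% to 26.9% higher and 20.9% to 24.9% lower in WT against TKO. Shares were 5.09% to 8.34% higher and 6.99% to 11.4% lower in D1240A against WT. They were 0.405% to 1.34% and 0.616% to 2.25% in F1295A against WT, and 1.21% to 3.72% and 0.951% to 4.82% in D1240A against F1295A. The lowest counts came without WT replicate 1 (11 in D1240A against WT), without WT replicate 1 or F1295A replicate 2 or 3 (2 in F1295A against WT) and without D1240A replicate 2 or F1295A replicate 2 (5 in D1240A against F1295A).

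With a replicate block, ER genes called higher and lower numbered 24 and 3 in D1240A, 30 and 4 in F1295A and 28 and 3 in WT against TKO, 0 and 13 in D1240A and 0 and 5 in F1295A against WT, and 0 and 6 in D1240A against F1295A. Shares of all tested genes were then 22.4% and 20.6% in D1240A, 23.2% and 21.0% in F1295A and 25.2% and 23.3% in WT against TKO. They were 6.96% and 9.42% in D1240A and 0.695% and 1.20% in F1295A against WT, and 1.98% and 1.67% in D1240A against F1295A. Calls lost with the block (adjusted p, limma) were CLGN (0.0861), SSR4 (0.0515) and SPCS1 (0.0547) in D1240A against F1295A, SEC61A1 (0.0622), SEC61B (0.0595), SPCS1 (0.0777) and SPCS3 (0.0525) in D1240A against WT, and MANF (0.0501) and DERL2 (0.0559) in WT, SEC11C (0.0521) in D1240A and HYOU1 (0.0682) in F1295A against TKO. Deviations of same-numbered libraries correlated at r = 0.085 or less (lowest -0.053), and the fit described above did not treat numbers as pairs. Even so, 9 of 12 libraries correlated best with their own number, a hint from the data and not from the design. Depth is unknown and limits the low genes most.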

Other observations

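The ER genes made up 0.63% to 0.898% of the FPKM of all non-structural features as deposited in D1240A libraries, 0.904% to 0.911% in F1295A, 0.923% to 0.928% in WT and 0.825% to 0.84% in TKO libraries. The lowest share, 0.63%, was that of D1240A replicate 2. Limits are the unknown depth, 3 libraries per group, the absence of an empty-vector group from the analysis and the unknown strand setting. RNA levels say nothing of protein levels, of XBP1 splicing or of secretion. Pseudogene copies of PDIA3, SPCS2 and SSR4 averaged 3.13, 2.91 and 1.75 FPKM, so some reads of these genes could have been split.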
